A study of Mus musculus with 8 samples.

Results

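The core circadian clock genes are the 10 genes Dbp, Per1, Per2, Per3, Cry1, Cry2, Bhlhe41, Nr1d1, Nr1d2 and Arntl, followed here in the trachea of old and young mice. They were chosen by name, with earlier results of these data known. Each was read from every probe set of the array whose only gene symbol in the platform annotation is its own. This gave 21 of the 45037 probe sets tested, and the 10 genes are 10 of 18193 genes measured. RNA came from the distal trachea and carina, the fork where the trachea divides into the main bronchi, of 4 old female mice (14 months) and 4 young female mice (2 months). All were C57Bl/6, an inbred strain, with no transgene or treatment named in the labels, and each mouse had 1 Affymetrix Mouse Genome 430 2.0 array. By the titles the old group is mice 1, 2, 5 and 6 and the young group mice 3, 4, 7 and 8, and nothing says what these numbers stand for.

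The clock is a loop of transcription and feedback that turns over about once a day in almost every cell. The proteins CLOCK, or its relative NPAS2, and ARNTL (also called BMAL1) bind E-box motifs in DNA and switch on the Per, Cry, Nr1d and Dbp genes. PER and CRY proteins then return to the nucleus and stop that activity, while the receptors NR1D1 and NR1D2 (REV-ERB) repress Arntl, so that Arntl peaks when Nr1d1 and Dbp are low. In the airways, club cells are known to carry a strong clock. Because each of these transcripts climbs and declines over the day, a level taken at 1 moment depends on the hour. The sources used here give no time of day at which the mice were killed, so a difference in that hour and a difference in age cannot be told apart in these arrays, and its part in any value below was not tested.

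The clock reads its own DNA motifs, and the stretches below show which letters stand just before the start of transcription in the genes described next. They are from RefSeq, assembly GRCm38.p6, within the 250 bases before the annotated start, written 5′ to 3′ on the gene's own strand, with the motifs searched in capitals. Both strands were searched. The E-box is CACGTG, which reads the same on both strands. Its variant is CACGTT, shown where it lies on the other strand as AACGTG. The D-box that DBP, TEF and HLF bind and at which NFIL3 represses is TTATGTAA or TTACGTAA. The core of the motif of REV-ERB and ROR receptors is AGGTCA, which on the other strand reads TGACCT. None of these overlapped another in the stretches shown.
Per3, chr4:151044804-151044882, minus strand: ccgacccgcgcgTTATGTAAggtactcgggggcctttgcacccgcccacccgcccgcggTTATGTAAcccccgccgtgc
Nr1d2, chr14:18239166-18239195, minus strand: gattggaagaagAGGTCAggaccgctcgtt
Nr1d1, chr11:98775388-98775417, minus strand: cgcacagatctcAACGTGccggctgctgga
Per1, chr11:69098771-69098829, plus strand: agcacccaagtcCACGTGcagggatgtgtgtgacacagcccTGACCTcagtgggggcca
Cry1, chr10:85185097-85185145, minus strand: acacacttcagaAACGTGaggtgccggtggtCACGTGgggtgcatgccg
Bhlhe41, chr6:145865556-145865585, minus strand: tggtacgttccgCACGTGagctgggtgctg
Ciart, chr3:95882255-95882356, minus strand: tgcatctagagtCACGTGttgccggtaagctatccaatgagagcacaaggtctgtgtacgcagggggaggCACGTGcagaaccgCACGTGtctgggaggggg

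Of the 10 genes, 9 matched the promoter table, and Per2 did not. The E-box stood before Per1, Cry1 and Bhlhe41, against 6.02% of all 32851 promoters in the table, and its variant before Cry1, Cry2 and Nr1d1, against 3.85%. Per3 held the D-box 2 times, which 7 promoters in the table did (0.0213%), and 0.931% held it at all. AGGTCA stood before Per1 and Nr1d2, and in 14% of all promoters. Ciart, a repressor of CLOCK and ARNTL that is not among the 10 genes, held 3 E-boxes, as 20 promoters did (0.0609%). The windows of Dbp and Arntl held none of these letters, which says nothing of sites elsewhere in those genes. A match is a description of the sequence, and no binding was measured.

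No clock gene passed the test between ages, which does not show that the ages were alike. The ages were set against each other with limma on log2 signals, two-sided. Benjamini-Hochberg adjustment ran over every probe set on the array or, where each gene stood for its brightest probe set, over every gene. At an adjusted p under 0.05, 0 of the 21 probe sets were lower in old mice and 0 were higher, against 0.0178% and 0.0533% of all probe sets, and 9 of the 21 had an unadjusted p under 0.05, against 11.2% of all probe sets. No filter on low signals was used, so all 21 entered the test. Among the 10 genes, 0 were lower and 0 were higher, against 0.181% and 0.368% of all genes, and 3 had an unadjusted p under 0.05, against 14.6% of all genes.

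The ages nevertheless did not overlap at several clock probe sets, always with the lower signal in old mice. All 4 old mice lay below all 4 young mice at 6 of 21 probe sets, from Dbp (2), Per3 (3) and Nr1d2 (1), against 3.75% of all probe sets, and above them at 0 of 21, against 4.05%. By gene, 3 of 10 (Dbp, Per3 and Nr1d2) were lower in all old mice, against 5.11% of all genes, and 0 were higher, against 5.02%. The log2 fold change of old minus young was negative for 16 of the 21 probe sets and 8 of the 10 genes, where 51.1% of all probe sets and 51% of all genes were negative. Probe sets of 1 gene measure the same RNA and are not independent. Because the 10 genes were chosen with earlier results of these data known, the counts beside these shares are a description without a test.

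**Figure D1:**
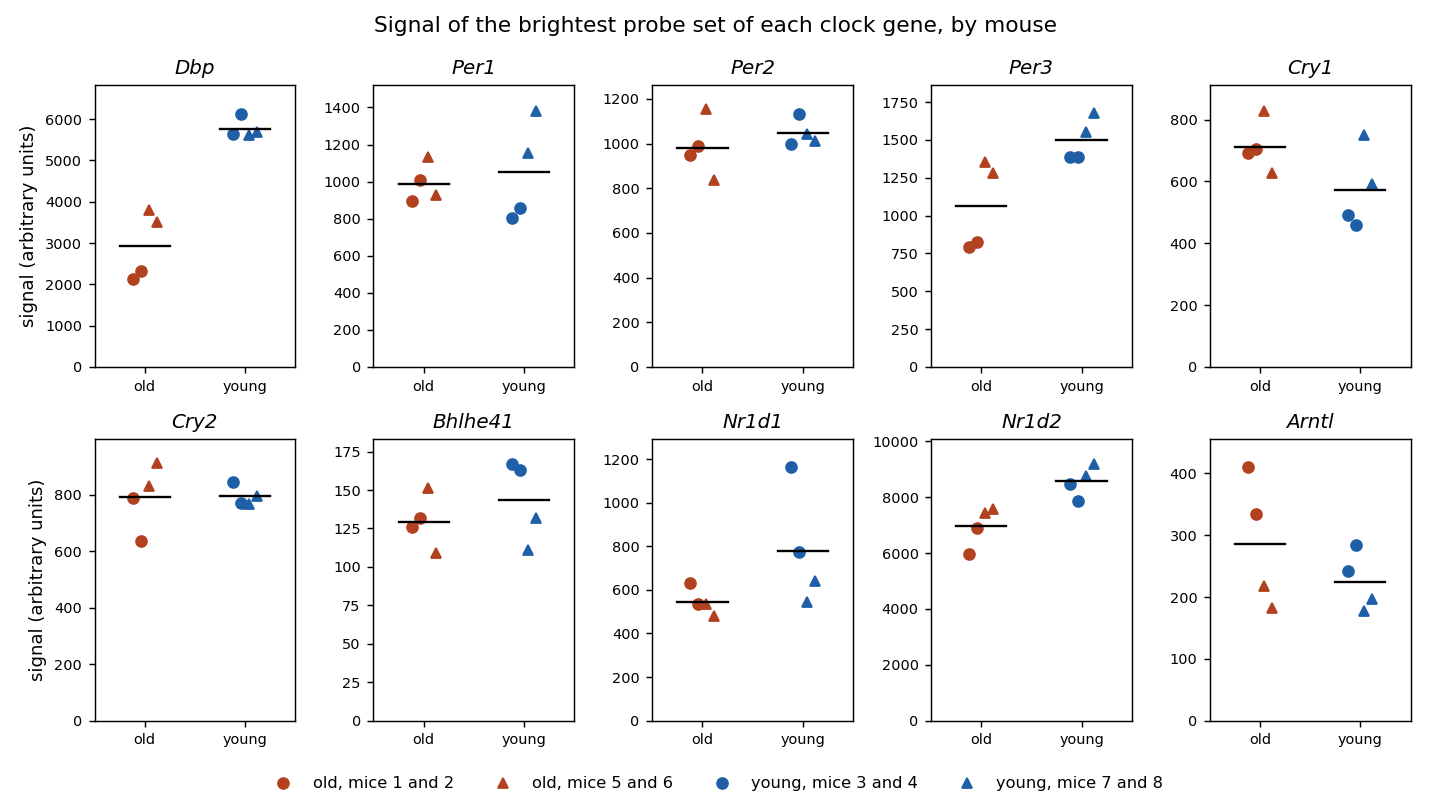
Signal of the brightest probe set of each clock gene in each old and young mouse, in arbitrary linear units with axes from 0. Points are mice, with circles for mice 1 to 4 and triangles for mice 5 to 8, and lines are means of 4 mice. Dbp, Per3 and Nr1d2 have all 4 old mice below all 4 young mice, and the other 7 genes overlap.

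Dbp, a PAR bZIP transcription factor whose gene is a direct target of CLOCK and ARNTL and which carries the rhythm to output genes, had the largest difference of the 10 genes. Its brightest probe set (1438211_s_at, a suffix for probes that may match more than 1 transcript) read 2122, 2336, 3791 and 3513 in old mice 1, 2, 5 and 6, against 5651, 6124, 5610 and 5696 in young mice 3, 4, 7 and 8. The 4 young mice lay close together, while old mice 1 and 2 stood apart from old mice 5 and 6, and every old mouse was below every young mouse. The means were 2941 ± 834 in old and 5770 ± 238 in young mice (SD, n = 4 each), a log2 fold change of -1.02 (standard error, SE, 0.195, with a limma adjusted p of 0.0776 over all genes). An exact permutation test over the mice, two-sided, gave p = 0.0286, the smallest that 4 mice against 4 can give. Any probe set at which the ages do not overlap gets this p, so it adds nothing to the lack of overlap. It was adjusted over no list.

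The other Dbp probe set (1418174_at) showed the same order. It read 1747, 1787, 2480 and 2434 in old mice 1, 2, 5 and 6, against 5229, 5288, 4780 and 4467 in young mice 3, 4, 7 and 8. The log2 fold change was -1.24 (SE 0.149), 2.37-fold lower in old mice, and it ranked 36 among all probe sets by p, with a limma adjusted p of 0.0531. Since the ages did not overlap, the difference in Dbp had to be negative at both sets of mouse numbers, and only its size could vary. At 1438211_s_at it was -1.40 on the log2 scale between old mice 1 and 2 and young mice 3 and 4, and -0.63 between old mice 5 and 6 and young mice 7 and 8. At 1418174_at the same values were -1.57 and -0.91. Whether the size differed between the numbers was not tested.

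Among the 10 genes, Dbp alone passed under some of the other settings of the test. Its 2 probe sets passed when the variance prior was trended and robust (adjusted p = 0.000922 for 1418174_at and 0.011 for 1438211_s_at) and among probe sets above the median signal alone (adjusted p = 0.0044 and 0.0241), while 1418174_at alone passed with arrays centred on their median (0.0442) and with a floor of 32 on the signal (0.0343). By gene, Dbp passed with that prior (0.00735), above the median signal (0.0157) and, read from 1418174_at, without _s_at probe sets (0.0265). With mouse numbers as a block, the adjusted p of 1418174_at was 0.0862. Over all alternatives the adjusted p of this probe set ran over the range 0.000922 to 0.147, and its log2 fold change over -1.33 to -1.16.

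In whole tissue, fewer cells of a type and less RNA per cell cannot be told apart, and some cell type markers differed between ages beside Dbp. The tissue carried its defining markers. The summed signal of 5 club and secretory cell genes was 97070 to 115583 in old and 103714 to 120550 in young mice, and that of 6 ciliated cell genes was 24468 to 29297 in old and 22655 to 28187 in young mice. Of 9 skeletal muscle markers, 2 were lower in old mice by the test, Apobec2 (-1.10, limma adjusted p = 0.0215) and Fbxo32 (-1.04, adjusted p = 0.0343), and 0 were higher, against 0.181% and 0.368% of all genes. With mouse numbers as a block Apobec2 passed (limma adjusted p = 0.0234) and Fbxo32 did not (0.061), and over the mean of its probe sets Apobec2 stood at -0.54 and did not pass (0.283). The 9 markers disagreed in direction, with 6 negative log2 fold changes and 3 positive (Acta1 +0.32, Mylpf +0.29 and the dim Myh2 +0.28). The summed signal of the 9 was 2717 to 3364 in old and 4519 to 5908 in young mice. Its brightest genes in young mice were Fbxo32 (mean 961 in old and 1969 in young mice) and Tnnt3 (785 and 1614). The myosin genes Myh1, Myh2 and Myh4 that define that tissue were at 98.2 or less in every mouse. Of 6 B and plasma cell markers, 1 (Jchain, +4.48, limma adjusted p = 0.0343, and 0.0594 with the block) was higher, against 0.368% of all genes, and the sum was 4687 to 15904 in old and 574 to 1223 in young mice. Leaving out 1 mouse ended the call of Apobec2 in 5, of Fbxo32 in 7 and of Jchain in 8 of 8 fits, with limma adjusted p-values up to 0.107. No T cell, macrophage, smooth muscle or basal cell marker passed. The T cell sum was 715 to 1150 in old and 472 to 606 in young mice, the macrophage sum 10373 to 12375 in old and 8960 to 10099 in young mice, and the smooth muscle sum 64352 to 74285 in old and 72601 to 84223 in young mice. The sum of 5 basal cell genes was 13053 to 16646 in old and 10745 to 12592 in young mice, without overlap. Most of it was Krt15 (mean 10912 in old and 8881 in young mice). Of the 5, 3 were higher in every old mouse, against 5.02% of all genes, namely Krt15 (+0.29), Krt5 (+0.31) and the dim Krt14 (+2.21). The other basal cell markers, Trp63 (-0.05) and Ngfr (+0.06), were close to 0 with the ages overlapping. The part of any of these in the clock values was not tested.

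The Period genes encode the PER repressors, and they differed among themselves. Per3 had lower signals in old mice. Its brightest probe set (1421087_at) read 793, 825, 1356 and 1282 in old mice 1, 2, 5 and 6, against 1386, 1390, 1554 and 1681 in young mice 3, 4, 7 and 8. Every old mouse was lower than every young mouse, with old mouse 5 just below young mouse 3, and within each age mice 5 to 8 were above mice 1 to 4. The log2 fold change was -0.54 (SE 0.199, limma adjusted p = 0.278 over all genes). It was -0.78 between old mice 1 and 2 and young mice 3 and 4, and -0.29 between old mice 5 and 6 and young mice 7 and 8.

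Of the other 5 Per3 probe sets, 4 also had negative log2 fold changes. At 1441445_at the signals were 375, 528, 759 and 694 in old mice and 1237, 1051, 840 and 1016 in young mice, with no overlap and a log2 fold change of -0.85 (SE 0.238, limma adjusted p = 0.261 over all probe sets). At 1460662_at they were 85.9, 120, 156 and 139 in old mice and 167, 168, 174 and 178 in young mice, again without overlap (-0.49). The ages overlapped at 1442243_at (-0.79) and 1458176_at (-0.54). The dim probe set 1421086_at, with signals of 26.7 to 69.2 in the 8 mice, had +0.27 and is uncertain at that level.

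Per1 and Per2 showed no such order. Per1 (1449851_at), a Period gene that glucocorticoid hormones also induce, read 894, 1006, 1132 and 926 in old mice and 805, 859, 1155 and 1380 in young mice. Young mice 7 and 8 were both higher than young mice 3 and 4, and the old mice lay between them, so that the log2 fold change was +0.19 at mouse numbers 1 to 4, -0.30 at 5 to 8, and -0.06 in all (SE 0.184, limma adjusted p = 0.925). The brightest Per2 probe set (1417602_at) read 951, 990, 1153 and 835 in old mice and 997, 1134, 1041 and 1010 in young mice, with a log2 fold change of -0.10 (SE 0.108, adjusted p = 0.739). The other Per2 probe sets had -0.14 (1417603_at) and -0.01 (1457350_at), and at 1457350_at mice 5 to 8 were above mice 1 to 4 in both ages.

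Cry1 and Cry2 encode the cryptochromes, which bind PER proteins and hold CLOCK and ARNTL inactive. Cry1 (1433733_a_at) read 691, 706, 826 and 626 in old mice and 490, 460, 751 and 591 in young mice. Young mice 3 and 4 were the lowest of the 8 and young mouse 7 stood among the old mice, and the log2 fold change was +0.33 (SE 0.169, limma adjusted p = 0.415). Cry2 (1426383_at) read 790, 638, 833 and 912 in old mice and 846, 773, 768 and 797 in young mice. Its ages overlapped throughout, with a log2 fold change of -0.02 (SE 0.115, adjusted p = 0.966).

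Bhlhe41, also called DEC2, is a basic helix-loop-helix repressor that competes at E-boxes. Its brighter probe set (1421099_at) read 126, 132, 151 and 109 in old mice and 167, 163, 111 and 132 in young mice, with a log2 fold change of -0.14 (SE 0.16, limma adjusted p = 0.754). Only young mice 3 and 4 exceeded all old mice. The other (1457096_at) read 3.33 to 11.4 in the 8 mice, too dim to read, at +0.60, and the mean over both probe sets was +0.23. Its paralog Bhlhe40, or DEC1, which is not among the 10 genes, read 2271, 2791, 3666 and 3090 in old mice and 3691, 3898, 3176 and 3962 in young mice (log2 fold change -0.33, adjusted p = 0.373).

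Nr1d1 and Nr1d2 encode the REV-ERB receptors. Nr1d2 (1416958_at) read 5977, 6913, 7445 and 7566 in old mice and 8464, 7858, 8758 and 9195 in young mice. The ages did not overlap, and within each age mice 5 to 8 were above mice 1 to 4. The log2 fold change was small, -0.30 (SE 0.097, limma adjusted p = 0.221), and nearly the same at both sets of numbers (-0.34 and -0.26). A dim probe set of the gene (1416959_at) had -0.46 with overlap. Nr1d1 (1426464_at) read 634, 535, 537 and 481 in old mice and 1165, 772, 544 and 640 in young mice. Young mice 3 and 4 exceeded all old mice, young mouse 8 (640) barely did, and young mouse 7 did not. The log2 fold change was -0.46 (SE 0.23, adjusted p = 0.411). Without young mouse 3 it was -0.25.

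Arntl encodes the activator that pairs with CLOCK, and within both ages its signal was ordered by mouse number. Its brighter probe set (1425099_a_at) read 411, 335, 218 and 182 in old mice 1, 2, 5 and 6, against 242, 284, 177 and 196 in young mice 3, 4, 7 and 8. In both ages the mice numbered 5 to 8 were lower than those numbered 1 to 4, by 0.90 on the log2 scale in old and 0.49 in young mice. Between ages the log2 fold change was +0.30 (SE 0.282, limma adjusted p = 0.686), and +0.10 without old mouse 1. The other probe set (1457740_at) had +0.18, with the same order of the numbers.

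**Figure D2:**
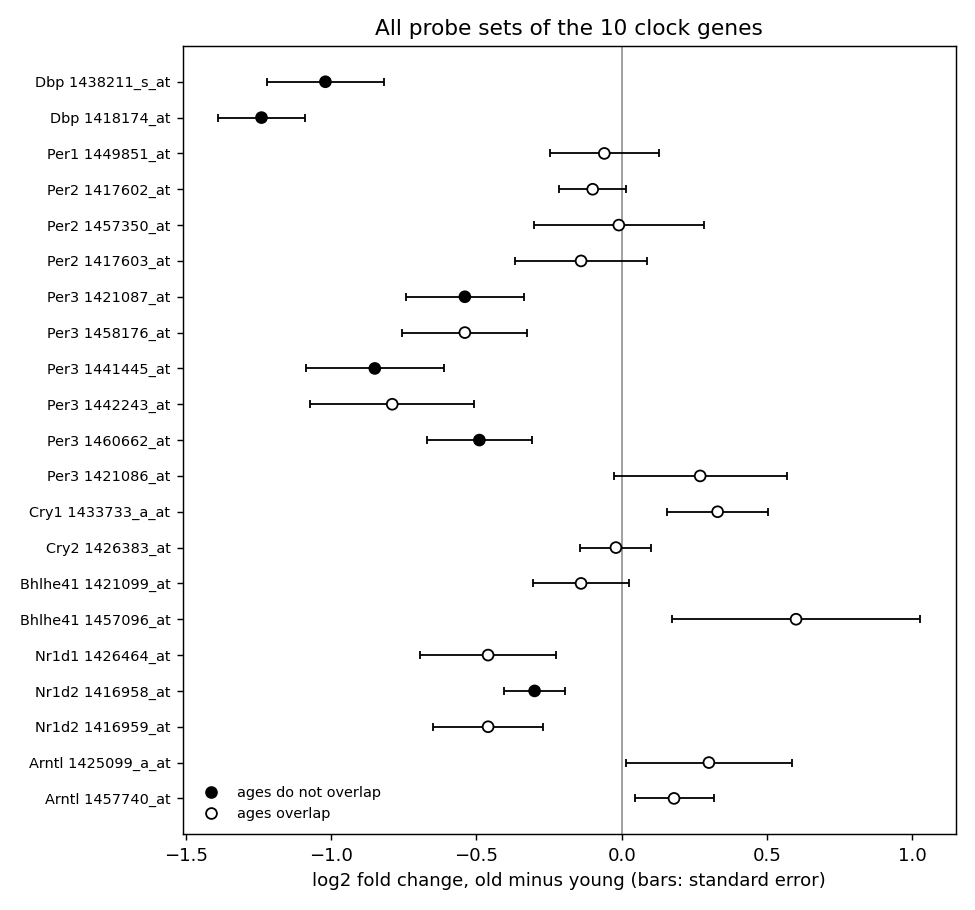
Log2 fold change of old minus young for all 21 probe sets of the 10 clock genes, with standard errors from limma (n = 4 mice per age). Filled points are the 6 probe sets at which old and young mice do not overlap, all of them below 0, and open points the 15 at which they overlap.

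Beyond the 10 genes, 20 more genes of the clock lists were measured, and 0 of the 30 in all passed the test in either direction. In 5 of the 30 genes all old mice were lower than all young mice, the 3 named above with Ciart and Prkaa2, against 5.11% of all genes, and in 0 were they higher, against 5.02%. Ciart (1435188_at) read 220, 247, 262 and 296 in old mice and 312, 335, 592 and 571 in young mice. Its young mice formed a lower pair, 3 and 4, and a higher pair, 7 and 8, and the log2 fold change was -0.77 (SE 0.239, limma adjusted p = 0.207).

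Prkaa2, the catalytic subunit of the AMP-activated kinase that marks CRY1 for degradation and that is abundant in muscle, had the smallest adjusted p of the 30 genes. It read 1193, 1181, 1210 and 1336 in old mice and 1533, 1676, 1724 and 1678 in young mice, or -0.43 on the log2 scale (SE 0.073, limma adjusted p = 0.0606). All 3 of its probe sets separated the ages. It passed the test under 3 of 18 alternatives, with adjusted p-values of 0.00901 to 0.151 over them.

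The PAR bZIP relatives of Dbp had smaller differences in the same direction. Tef stood at -0.29 (SE 0.151, limma adjusted p = 0.433) and Hlf at -0.31 (SE 0.126, adjusted p = 0.32), each with the ages overlapping and with mice 5 to 8 above mice 1 to 4 in both ages. Of the activators, Clock had +0.23, Npas2 +0.37 and Arntl2 -0.22, each with the ages overlapping, and the 4 probe sets of Clock disagreed in sign (+0.23, -0.28, +0.11 and +0.20). Nfil3, a repressor at D-boxes, had +0.41, Rorb +0.38 and Rora -0.20. At their brightest probe sets, the kinases, ligases and partners of PER and CRY were close to 0 for Csnk1d, Csnk1e, Btrc, Gsk3b, Fbxw11 and Usp7, at -0.10 to +0.01. Fbxl21 stood at -0.24, Timeless at +0.31 and Prkaa1 at +0.21. Some other probe sets lay further from 0, among them Btrc 1457305_at (-0.26, ages without overlap) and the dim 1417325_at (-1.26). Others were Gsk3b 1434439_at (-0.26), and Usp7 1437118_at (+0.43) and 1419921_s_at (-0.40).

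Read in the order in which their transcripts are known to peak over the day in mouse tissues, the age differences formed 2 runs. The 8 genes that lead the order had negative log2 fold changes, Nr1d1 (-0.46), Dbp (-1.02), Nr1d2 (-0.30), Per3 (-0.54), Tef (-0.29), Per1 (-0.06), Per2 (-0.10) and Cry2 (-0.02). The 5 that close it had positive ones, Cry1 (+0.33), Nfil3 (+0.41), Npas2 (+0.37), Clock (+0.23) and Arntl (+0.30). Where the runs meet, Per1, Per2 and Cry2 were nearer to 0 than their standard errors (0.184, 0.108 and 0.115). Leaving out 1 mouse turned the sign of Per1 (+0.09 without young mouse 8) and of Cry2 (+0.08 without old mouse 2). Bhlhe41 (-0.14) and Bhlhe40 (-0.33) were given no place in the order. Nor were Hlf (-0.31), Ciart (-0.77), Arntl2 (-0.22), Rora (-0.20), Rorb (+0.38) and the kinases, ligases and partners of PER and CRY. The runs therefore depend on which genes were placed. Of these 13 signs over all mice, 12 were the same between old mice 1 and 2 and young mice 3 and 4. Between old mice 5 and 6 and young mice 7 and 8, 11 were the same. The sign over all mice includes both contrasts, so these counts are not independent checks. The contrasts had opposite signs for Per1 (+0.19 and -0.30), Cry2 (-0.19 and +0.16) and Nfil3 (+0.86 and -0.04). None of the 13 passed the test, the order comes from general knowledge of the mouse clock, and neighbours in it share regulators, so the runs are a description without a test.

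**Figure D3:**
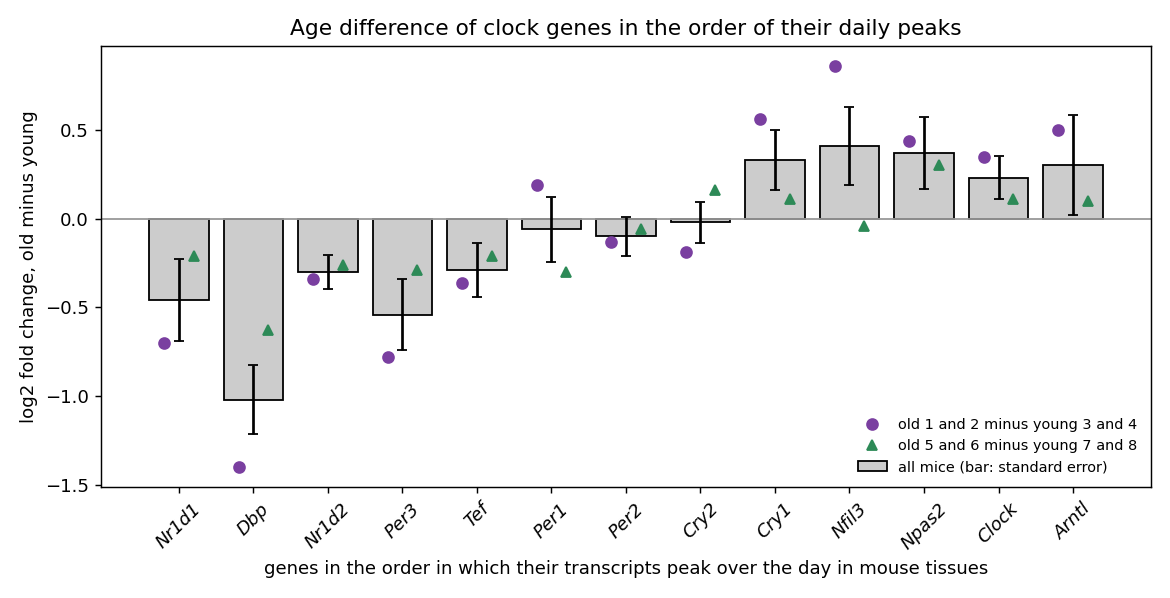
Log2 fold change of old minus young for 13 clock genes, placed in the known order of their daily peaks. Bars are all mice with the standard error from limma, circles old mice 1 and 2 minus young mice 3 and 4, triangles old mice 5 and 6 minus young mice 7 and 8. The 8 bars on the left lie below 0 and the 5 on the right above it, with the lowest at Dbp (-1.02).

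The same split can be read mouse by mouse. For each mouse, the log2 signals of 9 genes that peak by day or early night (Nr1d1, Nr1d2, Dbp, Tef, Hlf, Per1, Per2, Per3 and Ciart) were averaged after each gene was centred on its mean over the 8 mice. The averages were -0.41, -0.30, -0.02 and -0.12 in old mice 1, 2, 5 and 6, and 0.15, 0.11, 0.25 and 0.34 in young mice 3, 4, 7 and 8. Old mice 1 and 2 were the lowest and young mouse 8 the highest, and the ages did not overlap. The difference of old minus young was -0.42, and -0.35 without Dbp.

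The 4 genes of the opposite phase (Arntl, Npas2, Clock and Nfil3) averaged 0.49, 0.34, -0.01 and -0.17 in old mice 1, 2, 5 and 6, and -0.12, -0.12, -0.30 and -0.11 in young mice 3, 4, 7 and 8. Old mice 1 and 2 were the highest, and old mice 5 and 6 lay within or close to the range of the young mice. The difference of old minus young was +0.54 at mouse numbers 1 to 4 and +0.12 at 5 to 8. For the 9 genes it was -0.48 and -0.37, and without Dbp -0.37 and -0.33. Unlike the rest of the 9, Ciart (-0.47 and -1.06) and Per1 (+0.19 and -0.30) differed more at 5 to 8. Both groups of genes were chosen with results in view, and their averages were given no test. The averages of genes at opposite points of the daily cycle thus had differences of opposite sign. Both were larger at mouse numbers 1 to 4 than at 5 to 8, only slightly so for the 9 genes without Dbp, a contrast that was not tested. Whether a shift of the hour of collection would give these values could not be tested, since no hour is given for any mouse.

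**Figure D4:**
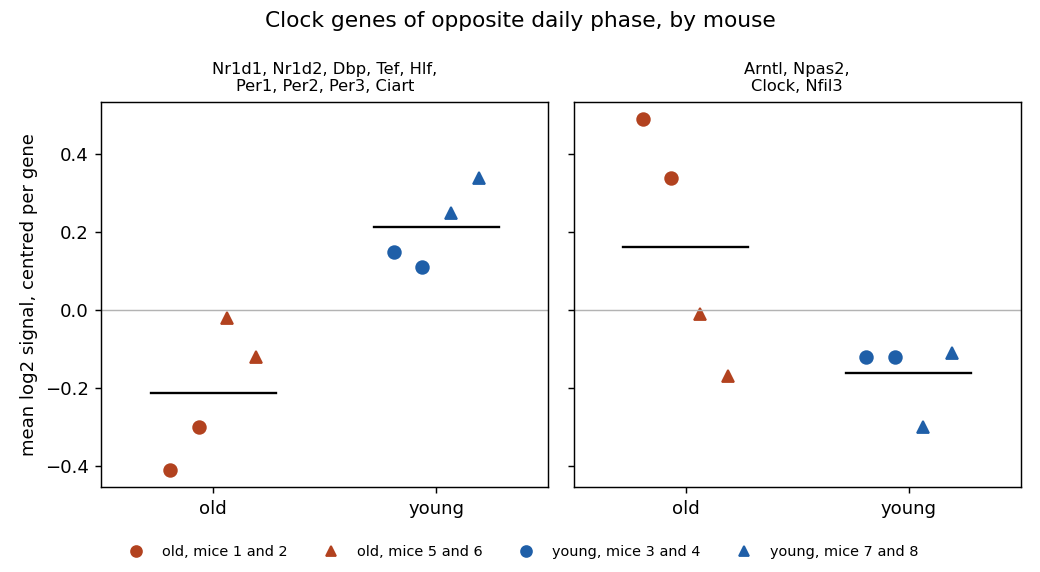
Mean log2 signal, centred per gene over the 8 mice, of 9 clock genes that peak by day or early night (left) and 4 of the opposite phase (right). Points are mice, lines means of 4 mice. On the left all old mice (-0.41 to -0.02) lie below all young mice (0.11 to 0.34), and on the right old mice 1 and 2 lie above every other mouse.

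The mouse numbers marked differences within an age as well. Of the 21 probe sets, 4 were higher in mice 5 to 8 than in mice 1 to 4 in both ages without overlap, against 2.94% of all probe sets, and 2 were lower, against 3.16%. By gene, read from the brightest probe set, these were Per3 and Nr1d2 (higher) and Arntl (lower), 2 of 10 against 3.34% of all genes and 1 of 10 against 3.11%. Probe sets of Per3 disagreed in young mice. Mice 7 and 8 minus mice 3 and 4 gave -0.30 at 1441445_at, -0.24 at 1442243_at and -0.20 at 1458176_at. It was +0.07 at 1460662_at and +0.32 at the dim 1421086_at. With the numbers as a block, 0 of the 21 probe sets and 0 of the 10 genes passed in either direction, while 0.0155% of all probe sets were higher and 0% lower in old mice, and 0.231% and 0.132% of all genes.

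In young mice, genes induced by glucocorticoids, the adrenal hormones that themselves follow a daily rhythm, also divided by number. All 11 measured genes of that list, Per1 among them, were higher in young mice 7 and 8 than in young mice 3 and 4. The median log2 difference was 0.59, against 0.003 over all genes, and 4 of 11 were over 2-fold higher, against 2.73%. Between old mice 5 and 6 and old mice 1 and 2, 1 of the 11 was higher and 10 were lower (median -0.205, against 0.008 over all genes). The split in young mice was not particular to this list. All 13 rhythmic output genes, some of them on both lists, and all 6 cartilage and 5 adipocyte markers were also higher in young mice 7 and 8. All measured B and plasma cell (6), basal (5), club and secretory (5), smooth muscle (5) and thyroid (4) markers were lower. So were all 4 activators. Fkbp5, a chaperone of the glucocorticoid receptor named after its values were seen, read 1974, 2671, 2256 and 1370 in old mice 1, 2, 5 and 6, and 883, 971, 2229 and 3496 in young mice 3, 4, 7 and 8. Tsc22d3 (GILZ) and Zbtb16, chosen in the same way, had that order in young mice too, with Tsc22d3 at 5003, 6814, 5745 and 5345 in old mice and 2416, 3127, 7001 and 9910 in young mice. Between ages 0 of the 11 passed the test, with a median log2 fold change of 0.249 against -0.005 over all genes. The 3 with the smallest p were Klf9 (-0.30), Sgk1 (+0.29) and Dusp1 (+0.77). The part of this split in the clock values was not tested.

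**Figure D5:**
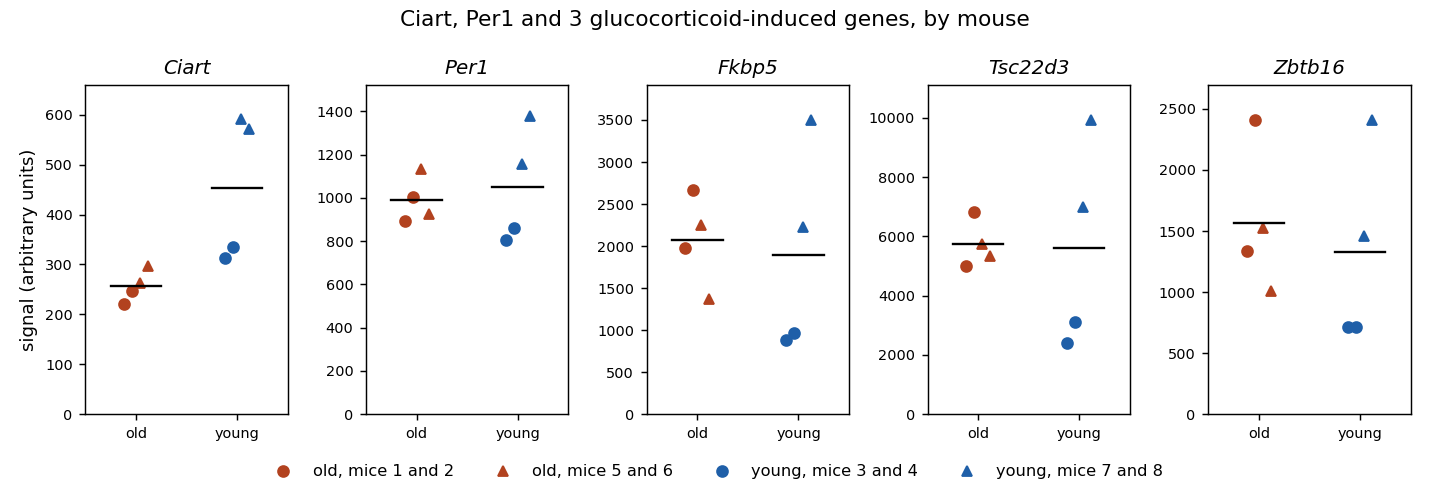
Signal of Ciart, Per1 and 3 genes induced by glucocorticoids in each old and young mouse, in arbitrary linear units with axes from 0. Points are mice, with circles for mice 1 to 4 and triangles for mice 5 to 8, and lines are means of 4 mice. In all 5 panels young mice 7 and 8 are above young mice 3 and 4, whereas old mice 5 and 6 are not set apart in this way for Fkbp5, Tsc22d3 or Zbtb16.

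Among genes that respond to handling or temperature, 3 passed the test as higher in old mice in the same arrays, of which 1 passed with mouse numbers as a block. All 10 immediate early genes, which respond to stimuli within minutes, had positive log2 fold changes (median 0.744, against -0.005 over all genes, of which 51% were negative). Of the 10, 1 passed, against 0.368% of all genes higher, namely Nr4a1 at +2.12 (limma adjusted p = 0.0396, and 0.0641 with the block). Of 7 temperature-responsive genes, 2 passed as higher in old mice, against 0.368% of all genes, the heat shock genes Hspa1a (+1.85, limma adjusted p = 0.0345) and Hspa1b (+1.56, adjusted p = 0.0286), near-identical copies whose RNA the probes may not tell apart. With the block Hspa1b passed (limma adjusted p = 0.0498) and Hspa1a did not (0.0641). Leaving out 1 mouse ended each of these 3 calls in 7 of 8 fits, with limma adjusted p-values up to 0.115. Every old mouse was above every young mouse at 4 of the 10 immediate early genes and 5 of the 7 temperature-responsive genes, against 5.02% of all genes. Cirbp, an RNA-binding protein induced by mild cold, had all old mice below all young mice (-0.69, adjusted p = 0.106). Of 13 rhythmic output genes, 0 passed in either direction, and the 3 with the smallest p were Klf10 (+0.31), Klf9 (-0.30) and Usp2 (-0.36). This list is not independent of the glucocorticoid list, since Klf9, Tsc22d3, Fkbp5 and Cdkn1a stand on both. The part of handling in the clock values was not tested.

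The 5 genes whose values over the 8 mice were most like those of Dbp were not on the clock lists. Those lists held 30 of the 18193 genes measured, so most neighbours of any gene would lie outside them. Likeness was the root mean square difference of log2 signals, each gene centred on its own mean, among 9096 genes above the median signal. It depends on the size of the differences between mice as well as on their order. The nearest 5 were Rgs2 (0.162), D130037M23Rik (0.182), Fbxo32 (0.185), Epha7 (0.213) and Mfsd4a (0.245). Among clock genes Per3 ranked 9 (0.263), Bhlhe40 64, Prkaa2 79, Hlf 151, Tef 153 and Nr1d2 178, and Nr1d1 ranked 1981. For Arntl the nearest 5 of 9097 were Gm20559 (0.209), Oasl2 (0.215), Tinagl1 (0.222), Ascc3 (0.225) and Grk5 (0.233), and Clock ranked 20 (0.262).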

How the data were processed

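The deposited table holds intensity values, 1 signal per probe set and array on a linear scale, made by the authors from 8 Affymetrix Mouse Genome 430 2.0 arrays. The methods name robust multichip analysis in Partek software, whereas the deposited signals are linear, with a mean of 500.002 on every array once the top and bottom 2% are left out. How they were made is therefore not settled, and no detection calls were used. Signals were taken to log2 with no further normalization. Of 45101 probe sets, 64 controls were left out. The platform annotation gives 34945 of the rest 1 symbol, 932 several and 9160 none, and only those with 1 symbol were given a gene. Each gene was read from the probe set with its highest mean log2 signal.

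Ages were compared with limma 3.58.1 in R 4.3.3 (lmFit and eBayes, age as the only factor), after the steps were tested on simulated data. The authors' two-way analysis of variance was not repeated, since its second factor is not named. The labels describe separate mice. The number of arrays limits the precision.

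The members, lists and tests were chosen with earlier results of these data known. Named were every probe set of the 10 genes, the genes of the clock lists, from related lists the genes past the threshold or else the 3 with the smallest p, and the 5 genes most like Dbp and most like Arntl. Lists of markers were described by counts and sums, and those not reported above for adipocytes, thyroid and cartilage held 0 genes past the threshold, with sums that overlapped between ages. Alternatives were leaving out each mouse, an analysis of variance without moderation, a trended and robust prior, array weights, probe sets above the median signal, quantile normalization, median centring, a floor of 32, mouse numbers as a block, the mean of a gene's probe sets, and leaving out _x_at and _s_at probe sets.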

Additional observations from a re-analysis of the deposited data

Results flagged for a closer look

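In 10 of 174 groups of 4 mice, each a probe set of a clock gene in 1 age, a single mouse stood apart by Dixon's test (gap over range above 0.829). Chance gives about 1 in 20 such groups. For the 10 genes described above, young mouse 4 was high for Dbp at 1438211_s_at (6124, the other young mice 5610 to 5696), young mouse 7 was low for Per3 at 1442243_at (374, the others 521 to 551) and old mouse 5 was low for Arntl at 1457740_at (108, the others 139 to 143). Old mouse 1 was high for Npas2 at the dim 1421036_at (45.4, the others 6.28 to 10.8) and for Rora at 1424034_at (1197, the others 1031 to 1046). Old mouse 2 was low for Gsk3b at 1437001_at (1231, the others 1472 to 1478) and high for Usp7 at 1419921_s_at (286, the others 163 to 174). Old mouse 6 was low for Rorb at 1425162_at (67.4, the others 113 to 118). Young mouse 8 was low for Csnk1d at 1415825_s_at (957, the others 1105 to 1124) and high for Fbxl21 at 1457232_at (99.9, the others 80.4 to 83.3).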

How the results depend on the processing

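No paired analysis was possible because old mice (1, 2, 5, 6) and young mice (3, 4, 7, 8) share no number, and the numbers 1 to 4 against 5 to 8 served as a block instead. That block changed no call among the clock genes. It ended the calls of Nr4a1, Hspa1a, Fbxo32 and Jchain, and left 42 genes higher and 24 lower in old mice (67 and 33 without it) and 7 and 0 probe sets (24 and 8 without it). Of the 10 clock genes, no probe set passed an adjusted p of 0.05 as the data were analysed. As lower in old mice, 2 passed with the trended and robust prior, 2 among probe sets above the median signal, 1 with median centring and 1 with the floor, all of Dbp. By gene, 1 of the 10 passed (Dbp) with that prior, above the median signal and without _x_at and _s_at probe sets. With any mouse left out, 0 of the 10 passed. Outside the 10, Prkaa2 passed with that prior, above the median signal and with the floor.

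The 6 calls outside the clock lists kept their sign throughout, and most were lost when a mouse was left out. Jchain passed in 0 of 8 such fits, Nr4a1 in 1 (without old mouse 1), Hspa1a, Hspa1b and Fbxo32 in 1 each (without old mouse 5) and Apobec2 in 3 (without old mouse 6, young mouse 4 or young mouse 8). Over these fits their adjusted p ran from 0.0268 (Apobec2) to 0.115 (Nr4a1). Without moderation only Apobec2 of the 6 passed (0.0457), and with the mean of all probe sets Apobec2 and Fbxo32 did not (0.283 and 0.0655). The cause was not tested.

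Of 47 log2 fold changes followed, 36 kept their sign under every alternative. Those that did not were close to 0 or dim. Leaving out a mouse turned the sign of Per1 (-0.17 to 0.09), Per2 at 1417603_at (-0.36 to 0.007) and 1457350_at (-0.21 to 0.15), Cry2 (-0.09 to 0.08), Csnk1d (-0.06 to 0.07), Btrc (-0.17 to 0.02), Gsk3b (-0.08 to 0.02), Fbxw11 (-0.01 to 0.03) and Usp7 (-0.09 to 0.05). Per2 at 1457350_at was 0.002 with quantile normalization. With the mean of all probe sets, Arntl2 was 0.12, Rorb -0.04, Csnk1d -0.03 and Fbxw11 -0.01. Csnk1d was -0.02 with array weights, -0.001 with quantile normalization and -0.02 without _x_at and _s_at probe sets, where Usp7 was 0.05. No detection calls were used, so dim probe sets are uncertain.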
